A study of Mus musculus with 9 samples.

Results

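The genes described here encode 15 integrin alpha subunits, 8 integrin beta subunits, 7 immunoglobulin superfamily and other cell-cell adhesion molecules, 2 cadherins, the selectin ligand Selplg, the hyaluronan receptor Cd44 and Cd47. They were chosen by gene symbol, and all 35 are among the 24054 genes of the deposited tables. The data are 9 mRNA sequencing libraries of type 2 dendritic cells sorted from spleens of C57BL/6 mice that were homozygous for Clec9a-Cre and for Rosa-tdTomato. In these mice Cre is driven from Clec9a, so that TOMATO fluorescence marks cells with a history of Clec9a expression. The 9 libraries fall into 3 groups of 3, namely TOM+ cDC2 and TOM- DC2 from mice at postnatal day 8 and TOM+ cDC2 from adult mice, aged 9 weeks for replicate 1 and 8 weeks for the other two. The groups thus share strain and genotype, none was treated, and adult TOM- cells were not analysed here. Spleens of the young mice were pooled before sorting, and every library was sorted as live, autofluorescence-negative cells positive for MHCII, CD11c and CD11b. CD11c is the protein of Itgax and CD11b that of Itgam, so that both of these members also encode surface proteins of the sort gate.

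Integrins are surface receptors made of an alpha and a beta subunit, which bind matrix proteins or adhesion molecules on other cells and are switched between low and high affinity from inside the cell by talins and kindlins. Leukocytes carry the beta subunit Itgb2 with Itgal, Itgam, Itgax or Itgad, and the beta subunit Itgb7 with Itga4 or Itgae. Dendritic cells use these receptors, together with cadherins and immunoglobulin superfamily members, to stay in or leave a tissue and to hold T cells during antigen presentation.

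Itgam and Itgax lie next to each other on chromosome 7 and are both read from the plus strand, at 128062640 to 128118491 and 128129526 to 128150657 of GRCm38, with 11034 bases between them. Itgad begins 23275 bases after the end of Itgax. Itgal lies on the same chromosome at 127296139 to 127335137. The sequences before the starts of Itgam and Itgax are shown because these neighbouring genes differed with age in opposite directions. They were taken from RefSeq (GRCm38.p6), whose promoter table held an entry for 20 of the 35 members. The Itgam sequence covers chr7:128062390-128062639 and that of Itgax chr7:128129300-128129525, both on the plus strand, and capitals mark GAGGAA or its reverse complement.
Itgam: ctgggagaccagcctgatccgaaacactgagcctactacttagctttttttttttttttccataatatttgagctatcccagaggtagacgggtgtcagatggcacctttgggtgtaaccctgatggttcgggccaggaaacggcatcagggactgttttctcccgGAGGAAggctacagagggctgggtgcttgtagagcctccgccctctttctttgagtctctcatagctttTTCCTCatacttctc
Itgax: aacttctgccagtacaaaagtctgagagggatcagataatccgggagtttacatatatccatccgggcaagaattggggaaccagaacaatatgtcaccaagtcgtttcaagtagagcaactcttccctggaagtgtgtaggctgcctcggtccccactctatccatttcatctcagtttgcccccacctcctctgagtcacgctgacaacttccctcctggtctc
GAGGAA, a core motif of ETS family factors such as PU.1, was searched on both strands together with TGTGGT, a core motif of RUNX factors. The window before Itgam held GAGGAA once on the plus strand, beginning 84 bases before the gene start, and once on the minus strand, beginning 15 bases before it, while the 226 bases before Itgax held neither motif. Among the 32851 promoter entries of the table, 23.3% held GAGGAA and 14.0% held TGTGGT within the 250 bases before the start, and 10 and 2 of the 23 entries of the 20 members did. These matches describe letters in these windows only.

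Between 12783252 and 22809401 reads fell on genes in each library, and 33 of the 35 members passed the filter of an average count of at least 1 over all libraries. Itga2, with 8 reads in all over the 9 libraries, and Itgb6, with 1 read, were not tested. The cDC2 and gate markers Cd74, H2-Ab1, H2-Aa, Sirpa, Irf4, Clec4a4, Flt3, Zbtb46, Cd209a and Dpp4 were detected throughout, with a summed level of 69753 to 78188 TPM in young and 111313 to 114662 TPM in adult libraries. Nearly all of this sum came from the MHC class II genes Cd74, H2-Ab1 and H2-Aa. Sirpa was instead lower in adults, with means of 753, 688 and 470 TPM in young TOM+, young TOM- and adult cells. Zbtb46 had 142, 122 and 138 TPM in the same order, and the other markers had their highest means in adults. Erythroid genes summed to 1173 TPM in young TOM- replicate 1 and to at most 120 TPM in every other library. Levels are given as the authors' TPM, which are scaled to gene length and so can be compared between genes. Differences are log2 fold changes (log2FC) of TMM-normalized counts with their standard errors, tested with edgeR's quasi-likelihood test and Benjamini-Hochberg adjusted p-values (padj), to which every padj below refers. Called genes had a log2FC above 1 or below -1 and a padj under 0.05, and a gene is said to have passed when padj alone was under 0.05. The TPM scale set young above adult levels more than the TMM scale did: the median log2FC of all tested genes was 0.05 for young TOM+ cDC2 against adults and 0.07 for young TOM- DC2 against adults with TMM, and 0.17 and 0.22 on log2(TPM + 0.1). On both TPM scales tested with limma, the lower values of Itgad, Itgav, Itgb2, Pecam1 and Cd47 in both young groups, and of Itga4 in young TOM- DC2, did not pass (padj of 0.053 or more). On both of these scales Itgae in both young groups, and Itgal and Itgb7 in young TOM- DC2, passed as higher than in adults, with a lowest padj of 0.035 and 0.017 for Itgae, 0.037 for Itgal and 0.021 for Itgb7. None of these 4 differences passed in edgeR.

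Type 2 dendritic cells of all groups expressed a small set of these genes at high levels. Itgb2, the common beta subunit of the leukocyte integrins, had the highest level of the members, with 603 ± 53.4 TPM (SD, n = 3) in young TOM+ cDC2, 618 ± 66.3 in young TOM- DC2 and 700 ± 86.1 in adult TOM+ cDC2. It was followed by Cd47, the receptor for thrombospondin and ligand of SIRPα, with group means of 545 to 616 TPM. Selplg, Itgax, Itgb7 and Icam1 had means between 264 and 482 TPM in every group, and Itgb1 between 146 and 196 TPM. In all, 7 members had a mean of at least 100 TPM in every group, 17 of at least 10 and 23 of at least 1.

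The 10 members with a mean under 0.5 TPM in every group were Itga1, Itga2, Itga2b, Itga3, Itga7, Itgae, Itgb4, Itgb6, Itgb8 and Jam2. Among these are Itga2b, the platelet integrin subunit, and Itgae, the subunit CD103 that binds E-cadherin and marks cDC1 and gut dendritic cells. Itgae had 0.44 ± 0.083 TPM in young TOM+ cDC2, 0.48 ± 0.062 in young TOM- DC2 and 0.23 ± 0.035 in adults, and neither age comparison passed in edgeR (padj = 0.17 and 0.095).

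**Figure D1:**
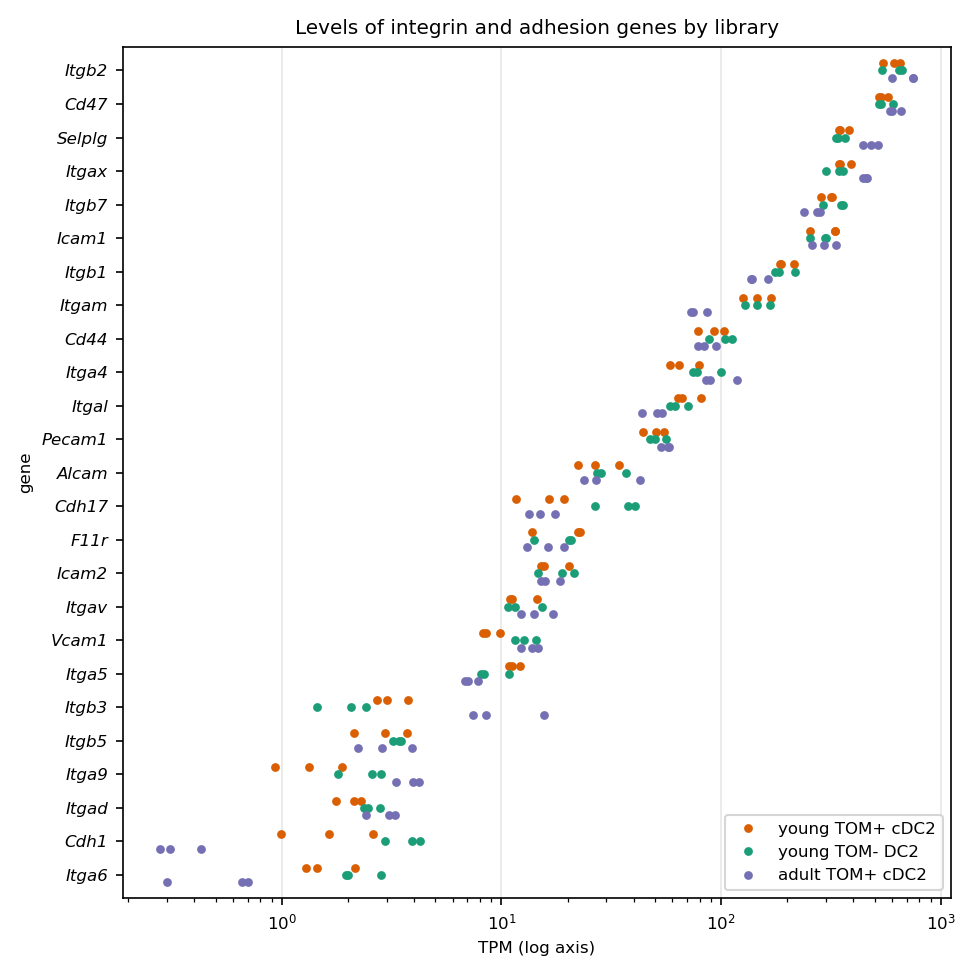
TPM (log axis) of the 25 members with a mean of at least 1 TPM in some group, 1 point per library, with groups by colour. Itgb2 and Cd47 lie at the top, and Itgb3, Itga6, Cdh1 and, among the better expressed genes, Itgam show the widest gaps between young and adult libraries.

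Age was compared first in the cells that share a history of Clec9a expression, as young TOM+ cDC2 against adult TOM+ cDC2. Of the 33 tested members 18 passed at padj under 0.05, with 6 higher in young and 12 lower, where 21% of all 14452 tested genes were higher and 19.5% lower. At the fold threshold 5 members were called: Itga6 and Cdh1 were higher in young cells (5.96% of all tested genes were called higher) and Itga9, Itgb3 and Itga3 were lower (6.86% of all tested genes). The median log2FC of the members was -0.17, and -0.18 over the 30 with reads beyond 3 counts in some library of each group, beside 0.05 over all tested genes. In bulk samples such as these, fewer cells of a type and less RNA per cell cannot be told apart. The 6 marker genes of migratory dendritic cells, all detected, summed to 508 to 562 TPM in young TOM+, 598 to 738 TPM in young TOM- and 1941 to 2999 TPM in adult libraries. Most of this sum was Ccr7, the receptor that guides dendritic cells to T cell zones. Ccr7 had 307 ± 18.0 TPM in young TOM+ cDC2, 421 ± 73.2 in young TOM- DC2 and 1790 ± 466 in adults (log2FC -2.66 and -2.23, padj = 5.2e-07 and 2.2e-06). Fscn1, another of the 6, did not pass for young TOM+ cDC2 against adults (log2FC -0.46, padj = 0.079). The part of cells that express these genes in the age differences of the members was not tested.

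Young TOM- DC2 were compared with the same adult libraries, so that both age comparisons share their adult values and are given side by side. Young TOM- DC2 and adult TOM+ cDC2 differ in age and also in the history of Clec9a expression. These differences cannot be told apart in this comparison. Here 15 of the 33 members passed, 5 higher in young cells (19.4% of all tested genes) and 10 lower (16.9%). Called were Itga6, Cdh1 and Cdh17, which were higher in young TOM- DC2 (6.5% of all tested genes), and Itgb3, which was lower (4.78%). The median log2FC of the members was -0.04, and -0.18 without the 3 members at the floor of 3 counts in every library of a group, beside 0.07 over all tested genes. In the comparison of both young groups with each other 1 of the 33 members was called, Cdh17, which was lower in TOM+ cDC2. Of all tested genes 1.16% were called lower and 0.0208% higher, and at padj alone 1.47% were lower and 0.125% higher. With the number that young libraries of both groups share as a block, Itga9 and Vcam1 passed as well, making 3 members.

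**Figure D2:**
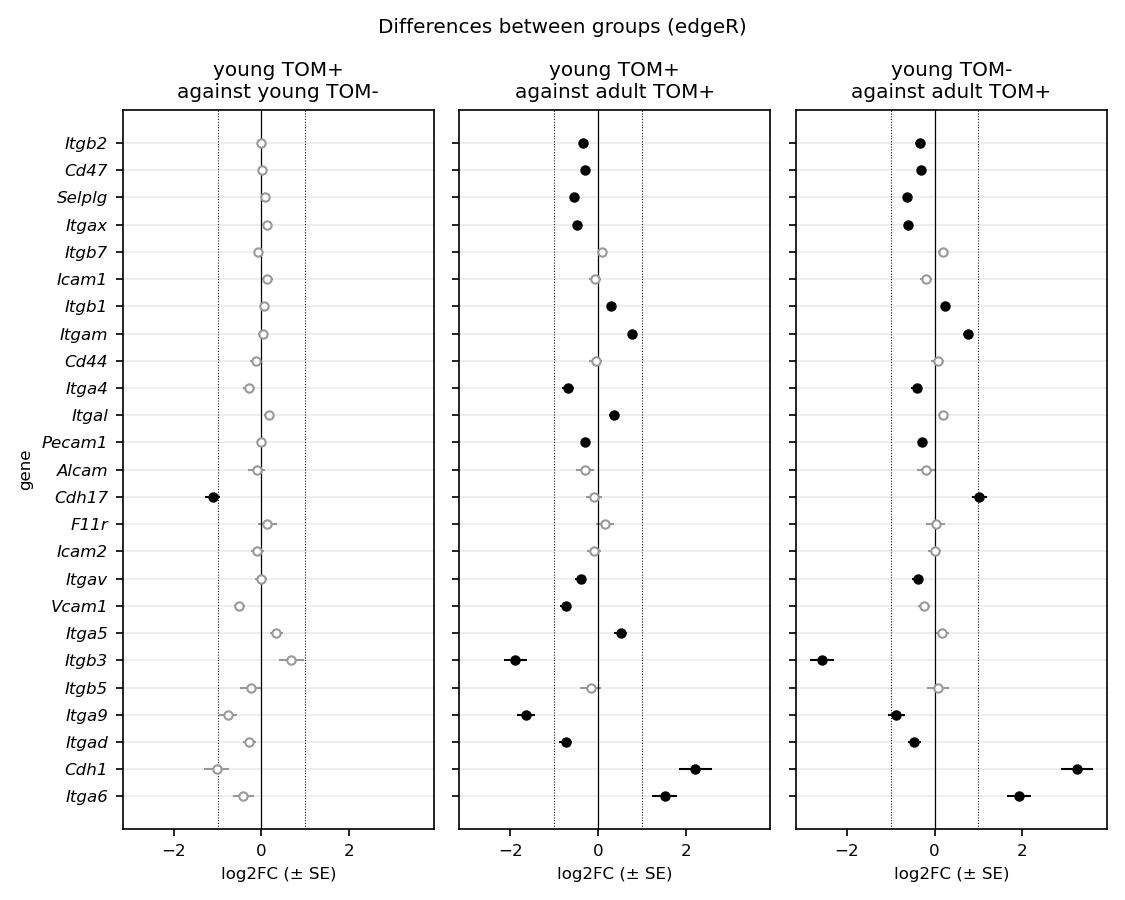
The log2FC ± SE of the same 25 members in each comparison, with filled points for a padj under 0.05, open points otherwise and dotted lines at the fold threshold. Both comparisons with adults hold points past these lines on either side, while Cdh17 is the only filled point between the young groups.

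Among the alpha subunits that pair with Itgb2, Itgam was higher and Itgax lower in young cells. Itgam encodes CD11b, which with Itgb2 forms the complement receptor CR3. Its level was 168, 126 and 146 TPM in young TOM+ cDC2, 166, 128 and 146 TPM in young TOM- DC2 and 73.0, 86.2 and 74.5 TPM in adults. All 6 young libraries thus lay above all 3 adult libraries. Young TOM+ cDC2 exceeded adults by a log2FC of 0.78 ± 0.11 (padj = 0.000117) and young TOM- DC2 by 0.75 ± 0.11 (padj = 0.000191), and the log2FC between the young groups was 0.03 ± 0.11 (padj = 0.98). Monocytes, neutrophils and macrophages also express Itgam. The 8 monocyte and neutrophil genes found in the files, of which 6 had a mean under 1 TPM, summed to 263 to 291 TPM in young TOM+, 207 to 265 TPM in young TOM- and 179 to 203 TPM in adult libraries. Nearly all of these sums came from Csf1r and Ccr2, with Csf1r at 227 to 256, 186 to 228 and 160 to 183 TPM in the same order. The 10 macrophage genes found in the files summed to 178 to 229, 278 to 341 and 93.2 to 141 TPM in the same order. Their part in the Itgam result was not tested.

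Itgax encodes CD11c, the alpha subunit of complement receptor CR4. It had 390, 343 and 349 TPM in young TOM+ cDC2, 359, 301 and 345 TPM in young TOM- DC2 and 459, 445 and 463 TPM in adults. No young library reached the lowest adult library. The log2FC against adults was -0.47 ± 0.07 (padj = 0.000317) in TOM+ cDC2 and -0.60 ± 0.07 (padj = 6.68e-05) in TOM- DC2. Neither gene reached the fold threshold. Under every alternative run, both genes kept these directions in both age comparisons and a padj under 0.05.

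The ratio of Itgam to Itgax TPM was 0.432, 0.367 and 0.418 in young TOM+ cDC2, 0.463, 0.427 and 0.422 in young TOM- DC2 and 0.159, 0.194 and 0.161 in adults. Its mean was 2.37 times that of adults in young TOM+ cDC2 and 2.55 times in young TOM- DC2, and the two-sided exact permutation test gave p = 0.1 in each case, the smallest that 3 libraries against 3 allow. Over the 12 comparisons of such ratios the adjusted value was 0.15. Itgam made up 25.2% ± 1.56 (SD, n = 3) of the summed TPM of the alpha subunits Itgal, Itgam, Itgax and Itgad in young TOM+ cDC2, 26.7% ± 0.898 in young TOM- DC2 and 13.3% ± 1.21 in adults. Itgax made up 62.3% ± 1.55, 61.1% ± 1.09 and 77.7% ± 1.83, respectively. The sum of these alpha subunits per Itgb2 was 0.962 ± 0.039, 0.887 ± 0.026 and 0.846 ± 0.112 in the same order, and the exact permutation p of the comparisons of this sum was 0.1 between the young groups, 0.2 for young TOM+ cDC2 against adults and 0.5 for young TOM- DC2 against adults.

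**Figure D3:**
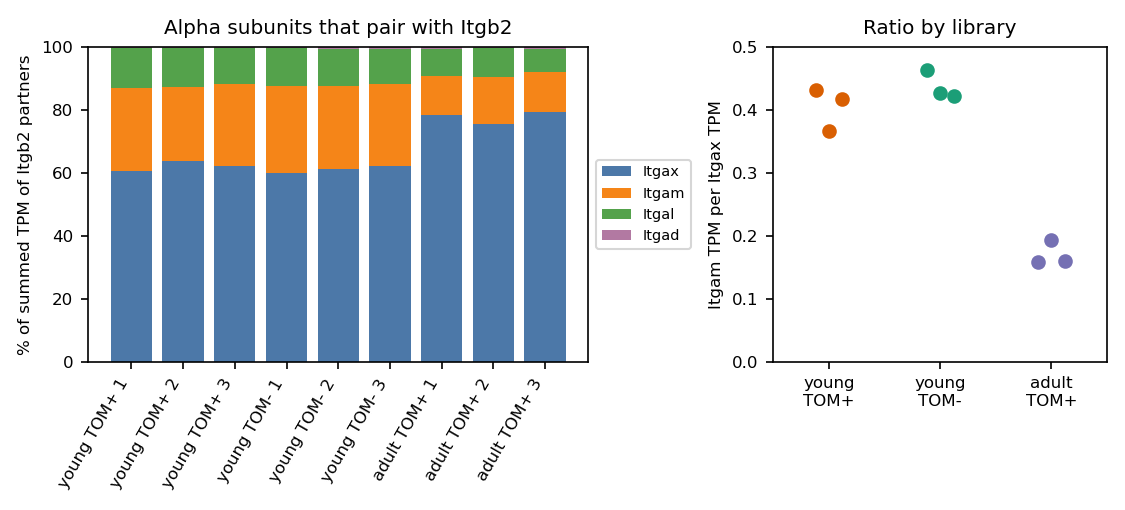
Left, the share of each Itgb2 partner in the summed TPM of Itgax, Itgam, Itgal and Itgad by library, and right, Itgam TPM per Itgax TPM by library. Itgam takes 23.4% to 27.8% in young and 12.5% to 14.7% in adult libraries, and the ratio is at least 0.367 in young and at most 0.194 in adult libraries.

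Itgal, the alpha subunit of LFA-1 that binds ICAM proteins on T cells, had 70.5 ± 9.3 TPM in young TOM+ cDC2, 63.8 ± 6.49 in young TOM- DC2 and 49.6 ± 5.34 in adults. It was higher in young TOM+ cDC2 than in adults (log2FC 0.36 ± 0.10, padj = 0.0155). This difference did not pass without young TOM+ replicate 1 or adult replicate 3 (padj up to 0.059). In young TOM- DC2 the log2FC of Itgal against adults was 0.19 (padj = 0.17). Itgad, whose protein pairs with Itgb2 on splenic macrophages, had 2.06 to 2.92 TPM and was lower in both young groups (log2FC -0.74, padj = 0.00219, and -0.46, padj = 0.031). The second of these did not pass without young TOM- replicate 1 or 2 or adult replicate 1 or 3 (padj up to 0.11), nor with no filter on low counts or RSEM expected counts. Itgb2 itself was lower in both young groups by a log2FC of -0.34 ± 0.10 (padj = 0.017 and 0.019), although its lowest adult library, at 601 TPM, lay below 4 of the 6 young libraries. Without adult replicate 2, or without replicate 2 of the young group, Itgb2 did not pass in either comparison, and without adult replicate 3 it did not in TOM- DC2 (padj up to 0.083).

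Itga4 and Itgb7 form the integrin that binds MAdCAM-1 and guides lymphocytes and dendritic cell precursors to the gut, and Itga4 with Itgb1 forms the VCAM-1 receptor VLA-4. Itga4 had 79.2, 58.8 and 64.6 TPM in young TOM+ cDC2, 100, 74.2 and 77.5 TPM in young TOM- DC2 and 88.8, 85.8 and 119 TPM in adults. The young TOM+ libraries lay below all adult libraries, while those of young TOM- DC2 overlapped with the adults. The log2FC against adults was -0.69 ± 0.13 (padj = 0.00123) in TOM+ cDC2 and -0.41 ± 0.13 (padj = 0.028) in TOM- DC2, and the second value did not pass without young TOM- replicate 2 or 3 or adult replicate 3 (padj up to 0.12). Itgb7 had 308 ± 19.4, 334 ± 36.5 and 264 ± 22.8 TPM and passed in no comparison in edgeR (log2FC 0.10 and 0.18 against adults, padj = 0.43 and 0.15). Itga4 TPM per Itgb7 TPM was 0.219 ± 0.027, 0.251 ± 0.034 and 0.371 ± 0.065. The exact permutation p was 0.1 for both young groups against adults, the smallest possible here (adjusted 0.15), so this test could not pass.

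Among the subunits that pair with Itgb1, Itga6 was higher and Itga9 lower in young cells. Itga6, a laminin receptor subunit, had 2.16, 1.29 and 1.45 TPM in young TOM+ cDC2, 2.83, 1.97 and 2.01 TPM in young TOM- DC2 and 0.70, 0.30 and 0.66 TPM in adults. All young libraries lay above all adult libraries. The log2FC against adults was 1.52 ± 0.28 (padj = 0.000966) in TOM+ cDC2 and 1.93 ± 0.28 (padj = 0.000194) in TOM- DC2, on 80 to 159 reads per young and 13 to 35 per adult library. Itga6 is also expressed by platelets and endothelial cells. Genes of endothelial and stromal cells summed to 1.57 to 16.2 TPM in young TOM+, 2.72 to 11.2 TPM in young TOM- and 2.37 to 2.87 TPM in adult libraries, with the highest sums in replicate 1 of both young groups. Itga6 was likewise highest there within each young group. Leaving out any 1 library gave a log2FC of 1.26 to 1.70 in TOM+ cDC2 and of 1.67 to 2.11 in TOM- DC2, with a padj of at most 0.0037. The mean of 9 of the 10 endothelial and stromal genes was under 1 TPM. Platelet genes are given below beside Itgb3. The part of these cell types in the Itga6 result was not tested.

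Itga9, whose integrin binds VCAM-1, tenascin and osteopontin, had 1.88, 0.93 and 1.33 TPM in young TOM+ cDC2, 2.84, 1.80 and 2.58 TPM in young TOM- DC2 and 3.32, 3.94 and 4.22 TPM in adults. The order was young TOM+ below young TOM- below adult, with an overlap between the young groups alone. It fell short of adults by a log2FC of -1.64 ± 0.20 (padj = 5.30e-05) in TOM+ cDC2 and of -0.87 ± 0.20 (padj = 0.00414) in TOM- DC2, the second of which did not pass in limma on log2(TPM + 0.1) (padj = 0.083). Between the young groups the log2FC was -0.77 ± 0.20 with a padj of 0.11, and of 0.0090 with the shared number as a block. Within the pairs of the same number, TOM- DC2 had 1.51, 1.94 and 1.94 times the Itga9 TPM of TOM+ cDC2. Without young TOM+ replicate 1 the padj of this comparison was 0.039.

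Itgb1, the partner of these subunits, had 196 ± 16.9, 193 ± 22.3 and 146 ± 15.3 TPM and was higher in both young groups (log2FC 0.30, padj = 0.0158, and 0.24, padj = 0.046). The first did not pass without young TOM+ replicate 1 or 3 or adult replicate 1 or 2 (padj up to 0.061). The second did not pass on leaving out any library other than adult replicate 3 (padj up to 0.14). Nor did it pass with RLE normalization, with either other filter on low counts, with RSEM expected counts or with only the 2 groups compared. Itga5, the fibronectin receptor subunit, was higher in young TOM+ cDC2 than in adults (11.4 ± 0.675 against 7.23 ± 0.541 TPM, log2FC 0.52 ± 0.14, padj = 0.0124), and had 9.07 ± 1.53 TPM in young TOM- DC2 (log2FC 0.18, padj = 0.37). Itga3 rested on 2 to 7 reads per young TOM+ and 9 to 18 per adult library, and its log2FC of -1.83 ± 0.65 (padj = 0.041) was no longer past the threshold without any 1 of the young TOM+ libraries, young TOM- replicate 3 or adult replicate 1 or 2 (padj up to 0.18). Itga1 had 19 and 15 reads in replicate 1 of young TOM+ and young TOM- cells, where the stromal genes were highest, and 0 to 7 reads in every other library. It shares its locus with Pelo and did not pass (padj = 0.16 and 0.37), but did for young TOM+ cDC2 against adults without young TOM- replicate 1 (padj = 0.039) and in the fit of only the 2 groups compared (padj = 0.038).

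Among the integrin subunits that passed, the largest fold differences from adults were those of Itgb3, which forms the vitronectin receptor with Itgav and the platelet fibrinogen receptor with Itga2b. Its level was 3.0, 2.70 and 3.76 TPM in young TOM+ cDC2, 2.43, 1.45 and 2.06 TPM in young TOM- DC2 and 8.55, 15.6 and 7.46 TPM in adults. Every adult library lay above every young library, and adult replicate 2 was the highest. The log2FC was -1.88 ± 0.26 (padj = 0.000137) in TOM+ cDC2 and -2.56 ± 0.28 (padj = 2.52e-05) in TOM- DC2, which corresponds to 3.69-fold and 5.91-fold lower expression than in adults. Leaving out any 1 library gave -2.09 to -1.48 for TOM+ cDC2 and -2.77 to -2.16 for TOM- DC2. Between the young groups the log2FC was 0.68 ± 0.28 (padj = 0.44).

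Platelet and megakaryocyte genes were examined beside Itgb3, since these cells also express it. The 9 listed genes summed to 2.45 to 5.60 TPM in young TOM+, 5.95 to 6.89 TPM in young TOM- and 5.39 to 9.57 TPM in adult libraries, and 7 of the 9 had a mean under 1 TPM. Gp9 was at 1.06, 3.18 and 5.87 TPM in the adult libraries, with group means of 2.84, 3.82 and 3.37 TPM in young TOM+, young TOM- and adult cells. Pf4 was at 0, 0.25 and 0 TPM in the adult libraries, Ppbp and Treml1 were listed at 0 in all of them, and Itga2b was at 0.04 to 0.24 TPM. Clec1b, which is also expressed by dendritic cells, had 0.53 to 1.03 TPM in young and 3.53 to 3.73 TPM in adult libraries. Itgav, the partner that binds vitronectin, had 12.2 ± 2.01, 12.5 ± 2.44 and 14.5 ± 2.51 TPM and was lower in both young groups (log2FC -0.40, padj = 0.030, and -0.38, padj = 0.038). Neither difference passed without replicate 2 or 3 of the young group or adult replicate 1 or 3 (padj up to 0.15). Itgb3 TPM per Itgav TPM was 0.264 ± 0.071, 0.159 ± 0.033 and 0.771 ± 0.441. The exact permutation p was 0.1 in each comparison, again the smallest possible (adjusted 0.15). Itgb5, which also pairs with Itgav, had 2.94 to 3.38 TPM in the group means and passed in no comparison (padj of at least 0.61).

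Both cadherins, which bind their like on neighbouring cells, differed between groups. Cdh1, E-cadherin, had 0.99, 2.61 and 1.64 TPM in young TOM+ cDC2, 4.24, 2.95 and 3.91 TPM in young TOM- DC2 and 0.31, 0.28 and 0.43 TPM in adults. The groups did not overlap, with TOM- DC2 highest and adults lowest. The log2FC against adults was 2.22 ± 0.38 (padj = 0.00055) in TOM+ cDC2 and 3.24 ± 0.37 (padj = 3.38e-05) in TOM- DC2, which corresponds to 4.66-fold and 9.46-fold higher expression. Between the young groups it was -1.02 ± 0.29 with a padj of 0.14, and of 0.056 with the shared number as a block. The TPM of TOM- DC2 was 4.28, 1.13 and 2.38 times that of TOM+ cDC2 within the pairs of the same number. Without young TOM+ replicate 2, the highest of its group, the log2FC between the young groups was -1.40 and its padj 0.036.

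Cdh17, LI-cadherin, set young TOM- DC2 apart from both TOM+ groups. It had 19.2, 11.6 and 16.5 TPM in young TOM+ cDC2, 40.4, 26.7 and 37.6 TPM in young TOM- DC2 and 13.4, 17.6 and 14.9 TPM in adults. Each TOM- library lay above every TOM+ library, and the TOM+ libraries of both ages overlapped. The log2FC of young TOM+ cDC2 against TOM- DC2 was -1.11 ± 0.17 (padj = 0.00384), and TOM- DC2 had 2.11, 2.30 and 2.28 times the TPM of TOM+ cDC2 within the pairs of the same number. Without young TOM+ replicate 2 this log2FC was -0.95, inside the fold threshold, with a padj that stayed under 0.05 on leaving out any 1 library. Against adults the log2FC was -0.09 ± 0.18 (padj = 0.72) in TOM+ cDC2 and 1.02 ± 0.17 (padj = 0.000649) in TOM- DC2. The second lay close to the fold threshold, and leaving out single libraries gave 0.92 to 1.17.

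Of the markers of other cell types, those of type 3 innate lymphoid cells (ILC3) were set beside Cdh17. Il1r1 (3.57 to 4.15 TPM) and Gata3 (2.12 to 2.52 TPM) were highest in young TOM- DC2, and reached at most 0.31 TPM and 0.46 TPM in the libraries of the other groups, respectively. The cytokine gene Il22 was listed at 0 in every library and Il23r was at most 0.22 TPM. The 6 listed genes also include Il7r and Kit. Their sum was 149 to 187 TPM in young TOM+, 198 to 262 TPM in young TOM- and 282 to 338 TPM in adult libraries. Nearly all of this sum was Kit, at 145.09 to 184.03, 187.48 to 250.23 and 278.82 to 333.84 TPM in the same order. Il7r had its highest mean in young TOM- DC2 (5.19 TPM) but passed in no comparison. The part of cells that express the ILC3 genes in the Cdh17 difference was not tested.

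**Figure D4:**
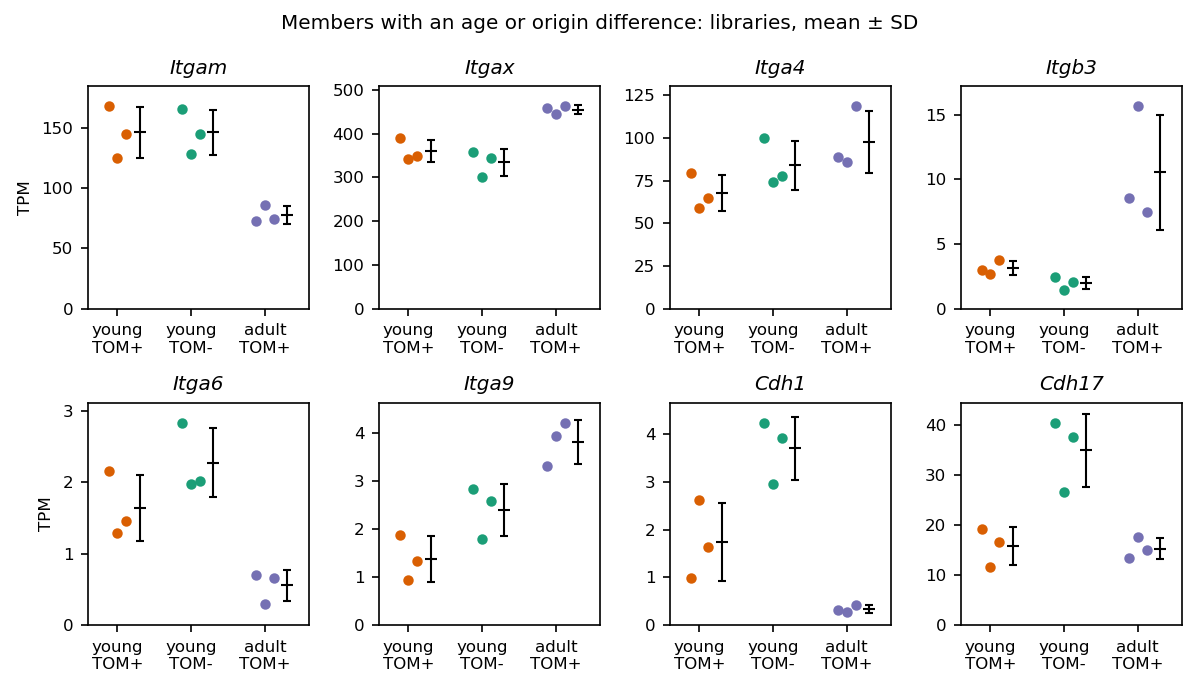
TPM of 8 members by library, with 1 point per library and the mean ± SD (n = 3) in black, each panel starting at 0. Itgam, Itga6 and Cdh1 are higher and Itgax and Itgb3 lower in all young than in all adult libraries, and Cdh17 is high in young TOM- DC2 alone.

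Among the cell-cell adhesion molecules of the immunoglobulin superfamily and their relatives, Vcam1 and Pecam1 passed a comparison with adults. Vcam1, the counter-receptor of Itga4 with Itgb1, had 8.48, 9.83 and 8.27 TPM in young TOM+ cDC2, 12.6, 14.4 and 11.6 TPM in young TOM- DC2 and 14.7, 12.3 and 13.7 TPM in adults. Young TOM+ cDC2 lay below both other groups, which overlapped. The log2FC of young TOM+ cDC2 against adults was -0.74 ± 0.13 (padj = 0.000731), and that of young TOM- DC2 -0.24 ± 0.13 (padj = 0.17). Between the young groups it was -0.50 ± 0.13 with a padj of 0.097, and of 0.017 with the shared number as a block, and the TPM of TOM- DC2 was 1.49, 1.47 and 1.40 times that of TOM+ cDC2 within the pairs. Red pulp macrophages also express Vcam1. The sum of the macrophage genes given above for Itgam was likewise higher in all young TOM- than in all young TOM+ libraries. This sum was lowest in adults. Of the macrophage genes, Cd163 and Timd4 were instead higher in all young TOM+ than in all young TOM- libraries. Between the young groups Cd163 passed (log2FC 0.947, padj = 0.026) and Timd4 did not (padj = 0.217). The other macrophage genes had higher means in young TOM- DC2 than in young TOM+ cDC2. The part of macrophages in the Vcam1 result was not tested.

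Pecam1, which mediates contacts with endothelium, was lower in both young groups by a log2FC of -0.30 ± 0.08 (padj = 0.00979) and -0.29 ± 0.08 (padj = 0.0126), with levels of 49.9 ± 5.32, 51.1 ± 4.3 and 56.2 ± 2.52 TPM. The first did not pass without young TOM+ replicate 2 (padj = 0.054). Icam1, the main ligand of Itgal with Itgb2, had 253, 330 and 331 TPM in young TOM+ cDC2, 254, 300 and 299 TPM in young TOM- DC2 and 295, 261 and 332 TPM in adults. All groups overlapped, and the log2FC of Icam1 against adults was -0.07 ± 0.14 and -0.20 ± 0.14 (padj = 0.72 and 0.30). Icam2, F11r and Alcam had group means of 16.2 to 31.1 TPM and passed in no comparison (padj of at least 0.26). Jam2 had 0 to 10 reads per library and did not pass either.

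Selplg, the selectin ligand PSGL-1, had 382, 349 and 345 TPM in young TOM+ cDC2, 367, 341 and 334 TPM in young TOM- DC2 and 442, 521 and 484 TPM in adults. No young library reached the lowest adult library. The log2FC was -0.55 ± 0.08 (padj = 0.000204) in TOM+ cDC2 and -0.63 ± 0.08 (padj = 9.58e-05) in TOM- DC2. Cd47 was lower in both young groups as well (log2FC -0.31, padj = 0.00469, and -0.32, padj = 0.00437), with an overlap of 1 young TOM- library with the adults in TPM. Cd44, the hyaluronan receptor, had group means of 85.9 to 102 TPM and passed in no comparison (padj of at least 0.74).

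Genes outside the 35 that act with these receptors were counted from lists of integrin regulators, ligands and other adhesion molecules. Of 42 tested genes of integrin activation and of the adhesome, 1 was called between the young groups (lower in TOM+ cDC2), 4 in young TOM+ cDC2 against adults (3 higher and 1 lower) and 2 in young TOM- DC2 against adults (both higher). Of all tested genes, 1.16% were called lower in TOM+ cDC2 between the young groups. Against adults 5.96% were called higher and 6.86% lower in young TOM+ cDC2, and 6.5% higher and 4.78% lower in young TOM- DC2. Tln2, a talin that switches integrins to high affinity, had 1.78, 0.78 and 1.49 TPM in young TOM+ cDC2, 4.19, 2.30 and 3.71 TPM in young TOM- DC2 and 0.07, 0.13 and 0.16 TPM in adults. Its 3 groups did not overlap, in the order seen for Cdh1. The log2FC of Tln2 was -1.31 ± 0.25 (padj = 0.018) between the young groups, 3.27 ± 0.36 (padj = 2.27e-05) for young TOM+ cDC2 and 4.58 ± 0.35 (padj = 2.22e-06) for young TOM- DC2 against adults. The other talin, Tln1, had far higher means of 251, 264 and 166 TPM in young TOM+, young TOM- and adult cells. It was not called (log2FC 0.47, padj = 0.0126, and 0.51, padj = 0.00889, against adults). Flna, the actin crosslinker that binds integrin tails, was higher in young TOM+ cDC2 (log2FC 1.12, padj = 3.79e-06) and TOM- DC2 (1.03, padj = 8.94e-06). The adaptor Fyb (ADAP), which links antigen receptor signals to integrin activation, was lower in young TOM+ cDC2 (log2FC -1.08, padj = 5.66e-06) and had a log2FC of -0.91 in TOM- DC2 (padj = 2.4e-05).

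Of 30 other cell-cell adhesion molecules tested, 10 were called in young TOM+ cDC2 against adults (5 in each direction, beside 5.96% higher and 6.86% lower among all tested genes), 11 in young TOM- DC2 against adults (5 higher and 6 lower, beside 6.5% and 4.78%) and none between the young groups. In this last comparison Cd82 (log2FC -0.55, padj = 0.00373) and Cd84 (-0.74, padj = 0.0127) passed at padj alone. There 6 passed at an unadjusted p under 0.05, beside 1355 of all 14452 tested genes. The cell adhesion molecule Cadm1 was higher in young cells (log2FC 1.56, padj = 1.43e-06, in TOM+ cDC2 and 1.52, padj = 2.47e-06, in TOM- DC2). Slamf7, a homophilic receptor of leukocytes, was lower (log2FC -1.50, padj = 1.31e-06, and -1.45, padj = 2.40e-06). Esam, an endothelial adhesion molecule that also divides splenic cDC2 into subsets, had 14.4 to 27.0 TPM in young TOM+ cDC2, 23.2 to 37.9 in young TOM- DC2 and 72.6 to 90.7 in adults (log2FC -2.21, padj = 7.16e-06, for TOM+ cDC2 against adults). Cd84, a SLAM family receptor, was higher in young TOM- DC2 than in adults (log2FC 1.76, padj = 3.90e-06).

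Of 20 tested matrix and soluble integrin ligands, 5 were called higher in young TOM+ cDC2 than in adults (5.96% of all tested genes), and 3 higher and 1 lower in young TOM- DC2 (6.5% and 4.78%). These genes had few reads. Col3a1, a fibrillar collagen of stromal cells, had 296, 9 and 1 reads in young TOM+ cDC2 and none in adults, and Lama5, a laminin chain, had 3, 5 and 6 reads in young TOM+ cDC2 and 1, 0 and 0 in adults. The periostin gene Postn had 17 to 45 reads per young and 0 to 11 per adult library (log2FC 2.18, padj = 0.017, and 2.22, padj = 0.017). Fibronectin, Fn1, was higher in young TOM- DC2 (log2FC 3.11 ± 0.97, padj = 0.025) with 124, 7 and 107 reads, and Tgfb3 was lower (log2FC -1.62 ± 0.53, padj = 0.030). No ligand was called between the young groups by edgeR, where 1 passed at an unadjusted p under 0.05, beside 1355 of all 14452 tested genes. None of the 4 further integrin subunit genes that were tested passed in any comparison by edgeR. At an unadjusted p under 0.05, 1 passed for young TOM+ cDC2 against adults, beside 7025 of all 14452 tested genes. For young TOM- DC2 against adults 2 passed, beside 6647 of all tested genes, and between the young groups 2 passed, beside 1355.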

How the data were processed

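Cells were sorted into lysis buffer, and cDNA was made with SMART-seq v4, which keeps no strand. The authors aligned single-end reads to mm10 with STAR and deposited its counts per gene, of which the unstranded column was tested. They also deposited RSEM expected counts, TPM and FPKM. The deposited expected counts were rounded for an alternative test, the deposited TPM served for levels, and the deposited FPKM were not used. Versions of STAR and RSEM are not given in the sources used here. The columns STAR made for each strand held about 50% of the reads each, and were left out.

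Groups were taken from cell type and age in the labels, and replicates were numbered in accession order. The labels do not say what a replicate was, so p-values measure the spread between these libraries, and no pair of one group was a copy. The number carried by the deposited names of the young libraries was used to pair them across groups. Deviations from the group means correlated at 0.5, 0.179 and 0.33 for the numbers 81, 91 and 92. These values were not set beside those of libraries with different numbers, so the pairing is an assumption. Adult replicates 1 to 3 carry 91, 92 and 95, and the block was fitted to the young libraries only. What the number stands for is not stated. Since 81 occurs in young and 95 in adult libraries only, an effect tied to these numbers cannot be told apart from age. The age comparisons were not adjusted for it.

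The 14452 genes whose average count reached 1 were tested with edgeR 4.0.16 in R 4.3.3 (quasi-likelihood test, TMM, Benjamini-Hochberg) over all 9 libraries in 3 groups. The study used DESeq2 with apeglm, run here as an alternative (DESeq2 1.42.0, apeglm 1.24.0), beside limma 3.58.1 on log2(TPM + 1) and log2(TPM + 0.1), RLE normalization, other filters, expected counts, only the 2 groups compared, a block for the shared number, and each library left out in turn. The tests were tested on simulated data. From each pathway list the text names up to 3 called genes with the smallest padj per comparison, or up to 2 that passed at padj alone. Tln1 is named in addition, beside Tln2. Members, lists and the rule were chosen with earlier results of these data known. Floors of 3 counts cover counting error only. Counting ignored strand, so reads where Itga4 overlaps Cerkl or Itga1 overlaps Pelo are uncertain. Some markers of other cell types are not reported here.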

Additional observations from a re-analysis of the deposited data

Results flagged for a closer look

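The contrast of Cdh17 with adult TOM+ cDC2 differed between the young groups. Young TOM- DC2 exceeded adult TOM+ cDC2 by a log2FC of 1.02, and young TOM+ cDC2 differed from the same adult libraries by -0.09. Because both contrasts share the adult libraries, their difference is the contrast of the young groups, with a log2FC of -1.11 ± 0.17 for TOM+ cDC2 against TOM- DC2 (edgeR's quasi-likelihood test, padj = 0.00384). TOM- DC2 had the higher Cdh17 TPM in 3 of 3 pairs of the same number.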

How the results depend on the processing

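Of the 35 members, 33 were compared under each alternative that kept them, and no member that passed at padj under 0.05 in either fit changed direction. Settings other than leaving out libraries kept 827 of the member values on their side of padj 0.05, moved 31 out of the threshold and 13 into it. Leaving out single libraries kept 838, moved 41 out and 3 into it. The number of called members in young TOM+ cDC2 against adults was 5, and 2 with limma on log2(TPM + 1), where a pseudocount of 1 compresses the log2FC of low genes (Itga6 to 0.76, Cdh1 to 0.99). Between the young groups 1 member passed at padj alone, and 3 did with DESeq2 and with the replicate block. With single libraries left out this number was 1 to 2. It was 2 without young TOM+ replicate 1 (Itga9 added) and without young TOM+ replicate 2 (Cdh1 added). The called members in that comparison numbered 1 throughout, but without young TOM+ replicate 2 the called member was Cdh1 in place of Cdh17. With libraries left out, called members were 4 to 6 for young TOM+ cDC2 and 3 to 4 for young TOM- DC2 against adults, and those passing at padj alone 14 to 19 and 10 to 14. Cdh17 in TOM- DC2 against adults lay inside the fold threshold without young TOM- replicate 1 or 3, young TOM+ replicate 3 or adult replicate 1 or 3 (0.92 at the lowest), and with RLE normalization, filterByExpr, DESeq2 and RSEM expected counts. With the replicate block, no member other than Itga9 and Vcam1 between the young groups changed in whether it passed. Depth limits statements on the 10 members under 0.5 TPM.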
